A study of Spinacia oleracea with 24 samples.

Results

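Ammonium transporters of the AMT family were followed in spinach leaves through 4 times of a day at a low and a high nitrogen supply. The members were taken by gene identifier from the deposited table of 25494 genes: 4 genes named AMT1-1 (Spo05791), AMT1-2 (Spo24676), AMT1-3 (Spo21031) and AMT3-1 (Spo20483). The table lists the Pfam ammonium transporter domain for all 4, and for 2 further genes, Spo24677 and Spo16971, which also carry the name AMT1-2. Those 2 genes are described after the members. The names come from sequence similarity to tomato proteins for the AMT1 genes and to a rice protein for AMT3-1, so they do not establish which spinach gene corresponds to which gene of tomato or rice.

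AMT proteins are membrane proteins that work as trimers and carry ammonium across the plasma membrane. The AMT1 branch holds the high-affinity transporters, best known from ammonium uptake by roots, where nitrogen shortage raises many of them and phosphorylation closes the trimer. The AMT3 proteins of rice belong to the AMT2-like branch, which lies nearer to the MEP transporters of yeast. In leaves, ammonium arises inside cells from nitrate reduction and from photorespiration, some of it can leak to the apoplast, and AMT proteins can bring it back. Tomato AMT1;2 and AMT1;3 are known as genes whose leaf mRNA differs between light and dark.

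The LN plants received 50 ppm nitrogen and the HN plants 200 ppm. All were 48-day-old plants of the cultivar Space, grown in turface, a soil-free medium, under 8 h of light. Leaves were frozen at the end of dark (T1), the middle of light (T2), the end of light (T3) and the middle of dark (T4). Each of the 8 groups held 3 libraries of poly-A RNA, which the labels describe as coming from 3 independent plants on a single day. The T1 to T4 groups cover 1 day only, so a change between times is a difference between groups of plants or leaves on that day and not a measured rhythm.

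The libraries held 18369094 to 25252705 fragments, recovered from the deposited FPKM values (fragments scaled by the authors for gene length and library size). The 21 antenna and Rubisco small subunit genes used as mesophyll markers were present in every library, and 4 of 5 root markers stayed below 1 FPKM throughout. The 2 phloem markers differed widely. The gene named after Arabidopsis SUC2, the sucrose loader of phloem companion cells, averaged 0.0552 FPKM, and PP2A10 averaged 70.6 FPKM. Correlations of a library with the mean of the other 2 of its group ran from 0.954 to 0.991. The 3 lowest belonged to LN leaves: replicate 3 of T3 (0.954), replicate 3 of T4 (0.959) and replicate 2 of T1 (0.964). LN replicate 3 of T4 had a summed mesophyll marker level of 12921 FPKM, against 31836 and 41370 FPKM in the other 2 LN libraries of that time. For selected calls and values, the result without one or more of these libraries is given too. Other values also moved without them.

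AMT1-3 was the most abundant of the 4 members in every group except LN leaves at T1, and it was higher in light than in dark at both nitrogen levels. It lies on chromosome 1 at 42244602 to 42247035, on the minus strand, with a gene length of 1467 bases. Its mean over all libraries was 75.9 FPKM, against 4.59 to 6.55 FPKM for the other 3 members. In LN leaves it had 10.6, 2.92 and 17.4 FPKM at T1. It had 107, 81.7 and 124 FPKM at T2, 142, 283 and 281 FPKM at T3, and 7.77, 21.4 and 62.9 FPKM at T4. In each LN library of the light period it was above all 6 LN libraries of the dark period. In HN leaves it had 19.3, 10.7 and 32.7 FPKM at T1. It had 43.8, 75.6 and 90.6 FPKM at T2, 196, 99.4 and 70.7 FPKM at T3, and 14.2, 13.7 and 13.6 FPKM at T4. The light and dark ranges were apart in HN leaves too.

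Over the light period the AMT1-3 mean was 22.9 times higher at its end than at T1 in LN leaves, and 5.84 times higher in HN leaves. On the log2(FPKM + 1) scale, the change from T1 to T3 was 4.58 ± 0.60 in LN leaves and 2.49 ± 0.60 in HN leaves (SE; limma, adjusted p = 1.67e-05 in LN leaves and 0.00357 in HN leaves). Here and below, p-values come from a linear model of all 24 libraries, were adjusted over the 18110 genes tested, and counted as passed under 0.05. AMT1-3 had already risen by T2, by 3.46 in LN leaves (adjusted p = 0.000596) and by 1.77 in HN leaves (adjusted p = 0.0356). Without LN replicate 2 of T1, at 2.92 FPKM, the LN rise to T2 was 2.83 (adjusted p = 0.00585). From T3 to T4 it fell by 3.28 in LN leaves (adjusted p = 0.00147) and by 2.92 in HN leaves (adjusted p = 0.00275). From T2 to T4 it fell by 2.16 in LN leaves (adjusted p = 0.0332) and by 2.20 in HN leaves (adjusted p = 0.0124). Without LN replicate 3 of T4 the LN mean of that time was 14.6 FPKM in place of 30.7, and the LN falls were 4.01 from T3 and 2.89 from T2 (adjusted p = 0.000178 and 0.00509). The order of means, from high to low, was T3, T2, T4, T1 in LN leaves, and the last 2 places were exchanged in HN leaves. Neither the 2 light times (adjusted p = 0.431 in LN leaves and 0.677 in HN leaves) nor the 2 dark times (0.237 in LN leaves and 0.714 in HN leaves) differed past the threshold, so the step in that order lay between T2 and the dark times. In whole leaves, fewer cells of a type and less RNA per cell cannot be told apart in any of these values.

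The rise of AMT1-3 from T1 to T3 was 2.09 ± 0.85 larger on the log2 scale in LN leaves than in HN leaves (SE, 95% interval 0.32 to 3.86). That difference did not pass after adjustment over all genes (unadjusted p = 0.0231, adjusted p = 0.378). In LN leaves its fall from T2 to T4 lost its call without any 1 of 5 libraries (adjusted p up to 0.211, without replicate 1 of T4) and with only the 2 compared groups (0.124). In HN leaves the rise to T2 lost its call without any 1 of 4 libraries (adjusted p up to 0.16) and with no filter on low genes (0.0513). The T1 to T3 rise and the T3 to T4 fall kept their calls without each of the 24 libraries, but the LN fall, fitted on its own 2 groups alone, had an adjusted p of 0.0645.

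**Figure D1:**
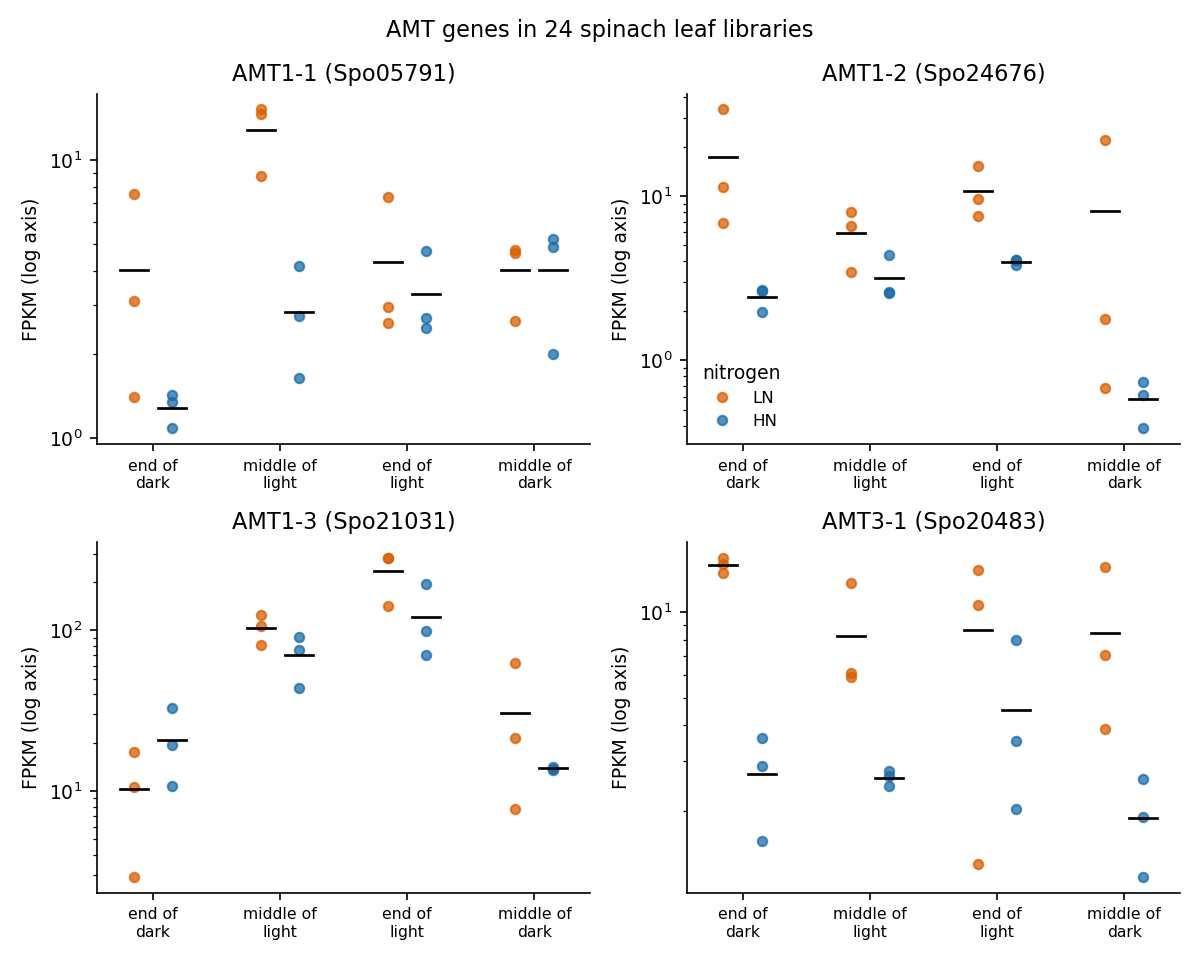
FPKM of the 4 AMT genes (log axes that differ between panels) in each of the 24 libraries at T1 to T4, with LN left of HN. Points are libraries and black bars are means of 3. AMT1-3 is high in light at both nitrogen levels, with LN means of 10.3, 104, 235 and 30.7 FPKM and HN means of 20.9, 70.0, 122 and 13.8 FPKM, while AMT3-1 is higher in all 3 LN libraries than in all 3 HN libraries at every time except the end of light.

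AMT1-1 rose at T2 in LN leaves. It lies on chromosome 5 at 47872430 to 47879524, on the minus strand, with a gene length of 2085 bases. In LN leaves AMT1-1 had 7.59, 1.41 and 3.12 FPKM at T1 and 15.3, 14.6 and 8.77 FPKM at T2. It had 2.59, 2.97 and 7.36 FPKM at T3 and 2.63, 4.76 and 4.65 FPKM at T4. All 3 mid-light libraries were above the other 9 LN libraries. In HN leaves AMT1-1 had 1.42, 1.08 and 1.35 FPKM at T1 and 1.64, 4.16 and 2.76 FPKM at T2. It had 2.48, 2.70 and 4.71 FPKM at T3 and 2.0, 5.23 and 4.88 FPKM at T4. The HN means followed the order T4, T3, T2, T1, from high to low, and no neighbours in that order differed past the threshold.

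In LN leaves, AMT1-1 was 1.62 ± 0.41 higher at T2 than at T1 on the log2 scale (SE, limma, adjusted p = 0.0096), a 3.19-fold ratio of mean FPKM. It then fell by 1.46 to T4 (adjusted p = 0.0355). Between T2 and T3 its log2 change was -1.46 ± 0.41, at an adjusted p of 0.08. The LN order was T2, T3, T1, T4, from high to low, and its neighbours did not differ past the threshold. The fall to T4 lost its call without LN replicate 1 or 2 of T2 or replicate 1 of T4 (adjusted p up to 0.17), with a pseudocount of 0.1 (0.0584), with no filter on low genes (0.0503) and after scaling to a common sum (0.0689). The rise to T2 lost its call without LN replicate 2 of T1 (adjusted p = 0.0789) and with only the 2 compared groups (0.0687).

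AMT1-2 was higher in LN leaves, and its lowest mean in HN leaves fell at T4. It lies on chromosome 4 at 18065459 to 18066940, on the plus strand, with a gene length of 1482 bases. In LN leaves AMT1-2 had 11.4, 6.82 and 33.7 FPKM at T1 and 3.43, 6.56 and 7.94 FPKM at T2. It had 9.60, 15.2 and 7.58 FPKM at T3 and 1.78, 0.676 and 22.0 FPKM at T4. Replicate 3 stood far above the other 2 LN libraries at T1 and at T4. In HN leaves it had 2.62, 2.68 and 1.97 FPKM at T1 and 2.59, 4.35 and 2.57 FPKM at T2. It had 4.06, 4.10 and 3.79 FPKM at T3 and 0.385, 0.611 and 0.735 FPKM at T4. The 3 HN mid-dark libraries were the lowest of all HN libraries, on 13, 22 and 27 fragments. The exact 95% Poisson interval of the lowest of them, 0.205 to 0.658 FPKM, covers counting error only.

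The means of AMT1-2 were ordered T1, T3, T4, T2 in LN leaves and T3, T2, T1, T4 in HN leaves, from high to low. No change of AMT1-2 over the day passed with all libraries in the fit (adjusted p of the time effect 0.158 in LN leaves and 0.15 in HN leaves, limma). LN replicate 3 of T4, at 22.0 FPKM, was 17.9 times the mean of the other 2 LN libraries of that time. Without that library, AMT1-2 fell to T4 from each of the other 3 times in LN leaves, with a log2 change of -2.79 relative to T1 (adjusted p = 0.000576), -1.63 relative to T2 (0.0296) and -2.40 relative to T3 (0.00156). Without the same library, HN leaves had a time effect too (adjusted p = 0.0106), since all groups share 1 estimate of the spread. There, AMT1-2 was lower at T4 than at T3 by a log2 change of -1.67 (adjusted p = 0.00676). The same library was also the highest of its group for AMT1-3, AMT3-1, Spo24677 and Spo16971, at 4.32, 2.63, 6.78 and 2.01 times the mean of the other 2. The mesophyll marker level of that library was the lowest of its group, opposite in direction to these values, and its part in them was not tested.

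AMT3-1 was higher in LN leaves, and no change over the day passed for it. It lies on chromosome 4 at 47716256 to 47733770, on the minus strand, with a gene length of 1652 bases over a genomic span of 17515 bases. In LN leaves AMT3-1 had 14.8, 15.5 and 13.7 FPKM at T1 and 5.92, 6.09 and 12.7 FPKM at T2. It had 1.3, 10.6 and 14.0 FPKM at T3 and 7.04, 3.88 and 14.4 FPKM at T4. The 3 LN libraries lay close together at T1 and spread widely at T3. In HN leaves it had 1.57, 3.61 and 2.88 FPKM at T1 and 2.77, 2.44 and 2.64 FPKM at T2. It had 3.53, 7.96 and 2.03 FPKM at T3 and 2.58, 1.17 and 1.91 FPKM at T4. The LN and HN ranges were apart at 3 times and overlapped at T3, where 1 LN library had 1.3 FPKM. Its means were ordered T1, T3, T4, T2 in LN leaves and T3, T1, T2, T4 in HN leaves, and no pair of times differed past the threshold. The time effect had an adjusted p of 0.342 in LN leaves and 0.609 in HN leaves (limma).

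Counted over the 4 members, a time effect passed for 2 in LN leaves (AMT1-1 and AMT1-3) and for 1 in HN leaves (AMT1-3). Of all 18110 genes tested, 28.7% had a time effect in LN leaves and 38.9% in HN leaves, so the members' counts lie near the background. Without LN replicate 3 of T4 the counts were 3 in LN leaves and 2 in HN leaves, with AMT1-2 added in each.

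For pairs of times in LN leaves, 2 members rose from T1 to T2, where 20% of all tested genes changed in either direction. From T1 to T3 1 member rose (background 26.0%), and none passed between the 2 dark times (background 7.49%, with 2 members at an unadjusted p under 0.05 and none by voom, a test on the recovered fragments). Between the 2 light times none passed (background 1.88%, with 1 member at an unadjusted p under 0.05 and none by voom). From T2 to T4 2 members fell (background 7.66%), and from T3 to T4 1 fell (background 13.1%).

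In HN leaves 1 member, AMT1-3, passed in each of 4 pairs. The backgrounds were 26.4% from T1 to T2 and 32.7% from T1 to T3. They were 23.7% from T2 to T4 and 18.4% from T3 to T4. None passed between the 2 dark times (background 7.79%, with 1 member at an unadjusted p under 0.05 and none by voom) or between the 2 light times (background 2.77%, with 0 members at an unadjusted p under 0.05 and none by voom). The 4 members gave 6 calls of 24 gene and pair combinations in LN leaves and 4 of 24 in HN leaves. Without LN replicate 3 of T4 the counts were 10 in LN leaves and 6 in HN leaves.

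Averaged over the 4 times, AMT1-2, AMT3-1 and AMT1-1 were higher in LN leaves than in HN leaves, and the abundant AMT1-3 did not pass. AMT1-2 averaged 10.6 FPKM in LN leaves and 2.54 FPKM in HN leaves, a log2 change of 1.41 ± 0.32 (SE, limma, adjusted p = 0.00744), with the LN mean higher at 4 of 4 times. AMT3-1 averaged 10 FPKM in LN leaves and 2.92 FPKM in HN leaves, a log2 change of 1.39 ± 0.27 (adjusted p = 0.00303), also higher at 4 of 4 times. AMT1-1 averaged 6.31 FPKM in LN leaves and 2.87 FPKM in HN leaves, a log2 change of 0.77 ± 0.21 (adjusted p = 0.0173), higher at 3 of 4 times. AMT1-3 averaged 95.1 FPKM in LN leaves and 56.7 FPKM in HN leaves. Its log2 change was 0.29 ± 0.30 with a 95% interval of -0.33 to 0.92 (adjusted p = 0.535), an interval that holds differences in both directions.

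The averaged test called 3 of the 4 members, all higher in LN leaves, where 16.5% of all tested genes were called in either direction and 7.92% as higher in LN leaves. The 3 calls held without each of the 24 libraries and without the 3 least typical ones together, for which the log2 changes were 1.29 (AMT1-2), 1.14 (AMT3-1) and 0.76 (AMT1-1). Some cell type and senescence markers were called for the averaged nitrogen effect as well. Of 21 mesophyll markers, 4 (19%) were lower in LN leaves and none was higher, a share near the 16.5% of all tested genes. Among the 4 were a Rubisco small subunit gene (RBCS2, Spo21477, log2 change -1.26, adjusted p = 0.00649) and LHCB5 (Spo01700, -0.86, adjusted p = 0.0187). Of the 2 tested epidermis markers, CUT1 was higher (Spo21466, 0.71, adjusted p = 0.000508) and PDF2 did not pass (Spo08434, 0.11, adjusted p = 0.557). Of the 3 tested senescence markers, SGR was higher (Spo26879, 0.89, adjusted p = 0.0297) and 1 SAG12 gene was lower (Spo13563, -0.82, adjusted p = 0.0102). No tested marker of guard cells, phloem, xylem or root was called in the averaged test. The part of the markers in the AMT differences was not tested.

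**Figure D2:**
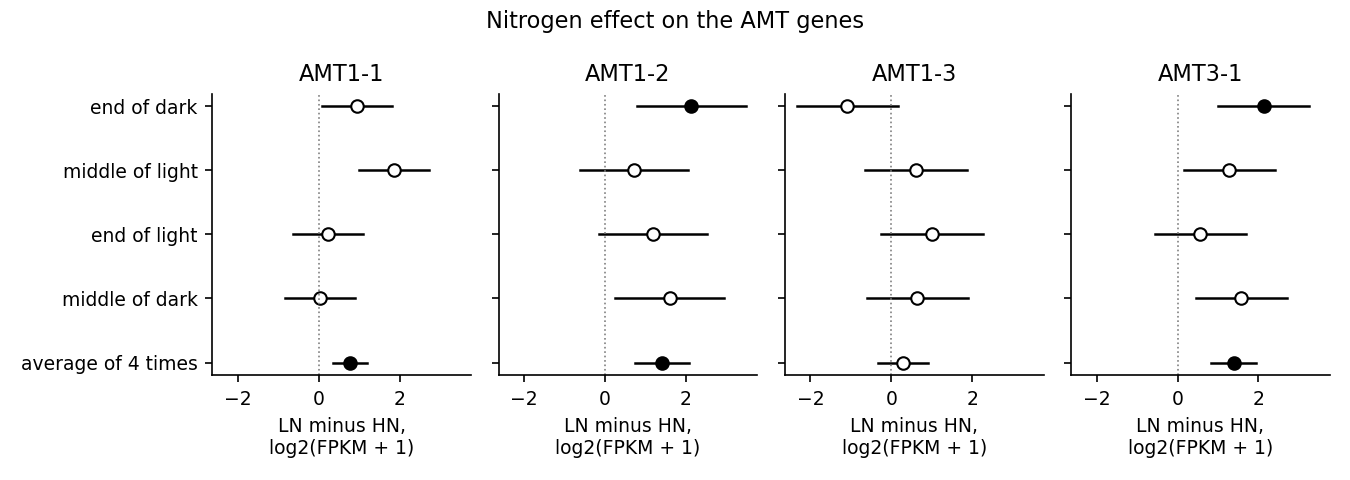
LN minus HN difference in log2(FPKM + 1) of the 4 AMT genes at each time and averaged, with 95% intervals from the limma fit (lines), and filled points where the adjusted p is under 0.05. Filled points are AMT1-2 (2.13) and AMT3-1 (2.13) at the end of dark and the averages of AMT1-1 (0.77), AMT1-2 (1.41) and AMT3-1 (1.39), while AMT1-3 lies between -1.09 (end of dark) and 1.0 (end of light) with every interval crossing 0.

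At single times, 2 members passed at T1, where 9.97% of all tested genes were called in either direction and 5.1% as higher in LN leaves. AMT3-1 averaged 14.7 ± 0.89 FPKM in LN leaves and 2.69 ± 1.03 FPKM in HN leaves (SD, n = 3 each), a 5.46-fold ratio and a log2 change of 2.13 ± 0.54 (limma, adjusted p = 0.018). AMT1-2 averaged 17.3 ± 14.4 FPKM in LN leaves and 2.42 ± 0.40 FPKM in HN leaves (SD, n = 3 each), a 7.13-fold ratio and a log2 change of 2.13 ± 0.64 (adjusted p = 0.0402). Without LN replicate 3 of T1, at 33.7 FPKM, the LN mean was 9.08 FPKM, the ratio 3.75 and the log2 change 1.53 (adjusted p = 0.237). The AMT3-1 call was lost without HN replicate 1 (adjusted p = 0.0803) or LN replicate 3 (0.0705) of that time. The AMT1-2 call was lost with a pseudocount of 0.1 (0.0517), with no filter (0.0574), with voom on fragments (0.0621), with only the compared groups (0.0754) and without any 1 of 5 of the 6 libraries of that time. Without LN replicate 2 of that time, AMT1-1 passed as well, at a log2 change of 1.38 (adjusted p = 0.0328). AMT1-3 had a log2 change of -1.09 ± 0.60 at T1 (adjusted p = 0.261), with overlapping ranges. Without LN replicate 2 of that time, its log2 change was -0.45 (adjusted p = 0.655).

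At T1, single markers differed too. The summed level of 4 epidermis markers was 88.9 to 121 FPKM in LN leaves and 29.3 to 35.9 FPKM in HN leaves. Most of it was CUT1, 3-ketoacyl-CoA synthase 6 of cuticular wax synthesis, at 92.5 FPKM in LN leaves and 22.8 FPKM in HN leaves, a log2 change of 1.96 (limma, adjusted p = 1.6e-05). PDF2 did not pass (0.34, adjusted p = 0.378), and the other 2 epidermis genes stayed below 1 FPKM everywhere. The summed level of 4 senescence markers was 36.2 to 67.0 FPKM in LN leaves and 13.9 to 20.4 FPKM in HN leaves, and its genes went both ways. SGR, a chlorophyll breakdown gene that made up most of the sum, had 48.6 FPKM in LN leaves and 14.3 FPKM in HN leaves and did not pass (adjusted p = 0.0508). The SAG12 gene Spo13563 was lower in LN leaves, at 0.282 FPKM against 2.34 FPKM in HN leaves (log2 change -1.31, adjusted p = 0.0421). The mesophyll sum averaged 37877 ± 13617 FPKM in LN leaves and 62738 ± 10793 FPKM in HN leaves (SD, n = 3 each). That sum also differed between times, so it is not a measure of mesophyll content alone. Its means were 93536 FPKM in LN leaves and 95950 FPKM in HN leaves at T2, and 28709 and 46234 FPKM at T4. Of the tested markers of other lists at T1, 1 of 21 mesophyll (4.76%) and 1 of 4 xylem genes were lower in LN leaves. None of guard cells, phloem or root was called, and of all tested genes 9.97% were called in either direction. At the later times the epidermis sums were 60.7 to 71.9 FPKM in LN leaves and 59.4 to 77.4 FPKM in HN leaves at T2, with overlapping ranges. They were 56.5 to 59.7 FPKM in LN leaves and 38.0 to 55.0 FPKM in HN leaves at T3. At T4 they were 49.98 to 68.8 FPKM in LN leaves and 39.9 to 49.9 FPKM in HN leaves, so the ranges were apart at T1, T3 and T4.

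No member passed at the other 3 times, at which few genes of any kind did. At T2 0.00552% of all tested genes were called, and AMT1-1 came nearest, at 12.9 ± 3.59 FPKM in LN leaves and 2.85 ± 1.26 FPKM in HN leaves (SD, n = 3 each). Its log2 change was 1.87 ± 0.41 with ranges apart, at an unadjusted p of 0.000218 and an adjusted p of 0.302 (limma). It passed without the 3 least typical libraries (adjusted p = 0.0378). Of the 4 members, 2 had an unadjusted p under 0.05 at T2, AMT1-1 and AMT3-1, and none was called by voom. At T3 0.00552% of all tested genes were called, and the members had 0 unadjusted p-values under 0.05 and 0 voom calls. AMT1-3 averaged 235 ± 81.2 FPKM in LN leaves and 122 ± 65.7 FPKM in HN leaves at that time (SD, n = 3 each, adjusted p = 0.753). At T4 0.37% of all tested genes were called, and the members had 2 unadjusted p-values under 0.05 (AMT1-2 and AMT3-1) and 0 voom calls. AMT3-1 averaged 8.44 ± 5.39 FPKM in LN leaves and 1.88 ± 0.70 FPKM in HN leaves there, with ranges apart (SD, n = 3 each, adjusted p = 0.144). Without LN replicate 3 of T4 its LN mean was 5.46 FPKM and its log2 change 1.15 in place of 1.58 (limma, unadjusted p = 0.0599). For AMT1-2 the log2 change was then 0.46 in place of 1.60 (unadjusted p = 0.312).

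A difference of the nitrogen effect between times was not shown for any member. The interaction test called 0 of 4 members and 0.0828% of all tested genes, with 1 member, AMT1-1, at an unadjusted p under 0.05 (0.0219, adjusted p = 0.38) and 0 calls by voom. The nitrogen difference of the rise over the light period called 0 members and 0.138% of genes, with AMT1-3 alone at an unadjusted p under 0.05 and 0 members by voom. The nitrogen difference of the change between T4 and T2 called 0 members and 0.0% of genes. There AMT1-1 had a log2 difference of 1.83 ± 0.58 (SE, unadjusted p = 0.0053, adjusted p = 0.354) and voom called 0 members.

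Over the day, the mean summed level of the 4 members had the same order of times as AMT1-3 at both nitrogen levels. Between nitrogen levels it differed from AMT1-3 at T1, where the mean sum was higher in LN leaves. There the AMT1-3 mean was lower in LN leaves, at 10.3 FPKM against 20.9 FPKM in HN leaves. The LN and HN ranges overlapped for both. In LN leaves the sum was 46.3 ± 20.7 FPKM at T1, 131 ± 22.3 at T2, 259 ± 90.1 at T3 and 51.3 ± 46.0 at T4 (SD, n = 3 each). In HN leaves the sum was 27.3 ± 10.6, 78.6 ± 24.9, 134 ± 64.8 and 20.3 ± 1.04 FPKM at the same times. The LN sum at T4 was 19.2, 30.7 and 104 FPKM in the 3 libraries, and without replicate 3 its mean was 24.9 FPKM, 1.23 times the HN mean. Since FPKM is per gene length, the members can be set side by side on this scale. AMT1-3 made up 20.1% of the sum at T1 in LN leaves and 73.6% in HN leaves. At T3 it made up 90.9% in LN leaves and 89.7% in HN leaves. At T1 in LN leaves, AMT3-1 held 37.3% and AMT1-2 held 33.6% of the sum, against 11.2% and 10.1% in HN leaves. These shares are descriptions without a test.

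Both further genes with the ammonium transporter domain are named AMT1-2. Spo24677 lies next to AMT1-2 on chromosome 4, at 18083629 to 18085134 on the same strand, with 16688 bases and 0 genes between them. Spo16971 lies on chromosome 6 at 22690266 to 22692427. The sources used here do not say how reads shared by similar genes were counted, so the split of reads among the 3 genes named AMT1-2 is uncertain.

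Spo24677 was the more abundant of the neighbours, with a mean of 40.2 FPKM over all libraries against 6.55 FPKM for AMT1-2, and in HN leaves it was highest at T1, a dark time at which AMT1-3 was lower than in light. In LN leaves it had 86.1, 15.7 and 48.0 FPKM at T1, 22.6, 68.7 and 51.8 FPKM at T2, 26.8, 42.3 and 34.1 FPKM at T3, and 10.1, 16.5 and 90.3 FPKM at T4. In HN leaves it had 121, 36.7 and 115 FPKM at T1, 36.9, 64.2 and 14.3 FPKM at T2, 9.63, 9.88 and 9.57 FPKM at T3, and 12.5, 8.91 and 13.4 FPKM at T4. In HN leaves the values were high at T1, wide at T2 and low at both T3 and T4, while the LN ranges of the 4 times overlapped.

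In HN leaves Spo24677 was 2.92 ± 0.69 lower on the log2 scale at T3 than at T1 (SE, limma, adjusted p = 0.00303). At T4, a dark time, it was lower than at T1 by a log2 change of -2.70 (adjusted p = 0.0204), and its time effect had an adjusted p of 0.00613. In LN leaves the time effect did not pass (adjusted p = 0.766), and it passed at 0.0462 without the 3 least typical libraries. The difference between nitrogen levels in the change from T1 to T3 was 2.67 ± 0.97 (SE) and did not pass (unadjusted p = 0.0127, adjusted p = 0.32). Its averaged nitrogen effect was 0.55 ± 0.34 (adjusted p = 0.282). Without LN replicate 3 of T4 that effect was 0.32 (adjusted p = 0.503), and the LN mean at T4 was 13.3 FPKM in place of 39.0. At T3, where the ranges were apart, Spo24677 averaged 34.4 ± 7.80 FPKM in LN leaves and 9.70 ± 0.17 FPKM in HN leaves (SD, n = 3 each, adjusted p = 0.601).

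Spo16971 was scarce, at 2.85 FPKM over all libraries, and higher in LN leaves. It averaged 4.11 FPKM in LN leaves and 1.59 FPKM in HN leaves, a log2 change of 0.92 ± 0.23 (SE, limma, adjusted p = 0.012), higher at 4 of 4 times. In LN leaves it fell by 1.78 on the log2 scale from T3 to T4 (adjusted p = 0.0147), and its means there were 7.15 ± 2.39 and 1.35 ± 0.59 FPKM (SD, n = 3 each). Its HN levels at T4 rest on 4 to 29 fragments per library.

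**Figure D3:**
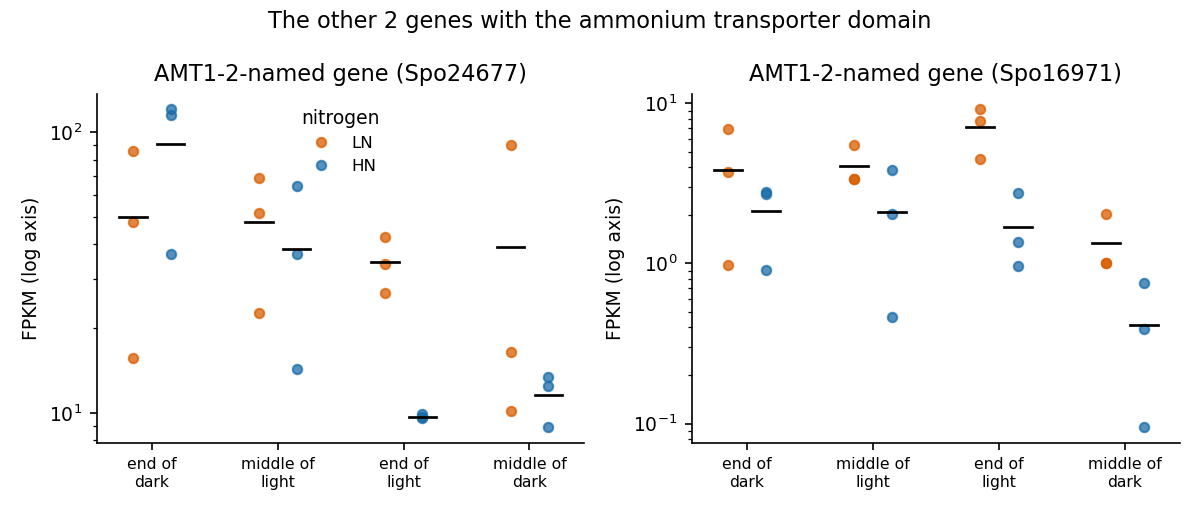
FPKM (log axes that differ between panels) of Spo24677 and Spo16971 in each of the 24 libraries at the 4 times, with LN left of HN, points for libraries and bars for means of 3. In HN leaves Spo24677 averages 90.8 FPKM at the end of dark and 9.70 FPKM at the end of light, while its LN means run from 34.4 to 49.9 FPKM. Its LN mean in the middle of dark, 39.0 FPKM, is 13.3 FPKM without replicate 3.

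With these 2 genes counted in, different genes held the largest share at T1 and at T3. Of the summed FPKM of all 6 genes, Spo24677 held 46.5% ± 15.4 in LN leaves and 73.6% ± 7.73 in HN leaves at T1 (SD, n = 3 each). At T3 it held 11.8% ± 2.13 in LN leaves and 7.57% ± 3.00 in HN leaves. At T3 the first place was held by AMT1-3 at both nitrogen levels. AMT1-3 held 9.60% ± 3.99 in LN leaves and 17.7% ± 4.18 in HN leaves at T1. At T3 AMT1-3 held 77.7% ± 3.29 in LN leaves and 82.0% ± 6.85 in HN leaves. The sum of the 6 genes was 100.07 ± 49.5 FPKM in LN leaves and 120.3 ± 56.1 FPKM in HN leaves at T1. At T3 it was 301 ± 95.2 FPKM in LN leaves and 145 ± 65.6 FPKM in HN leaves.

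**Figure D4:**
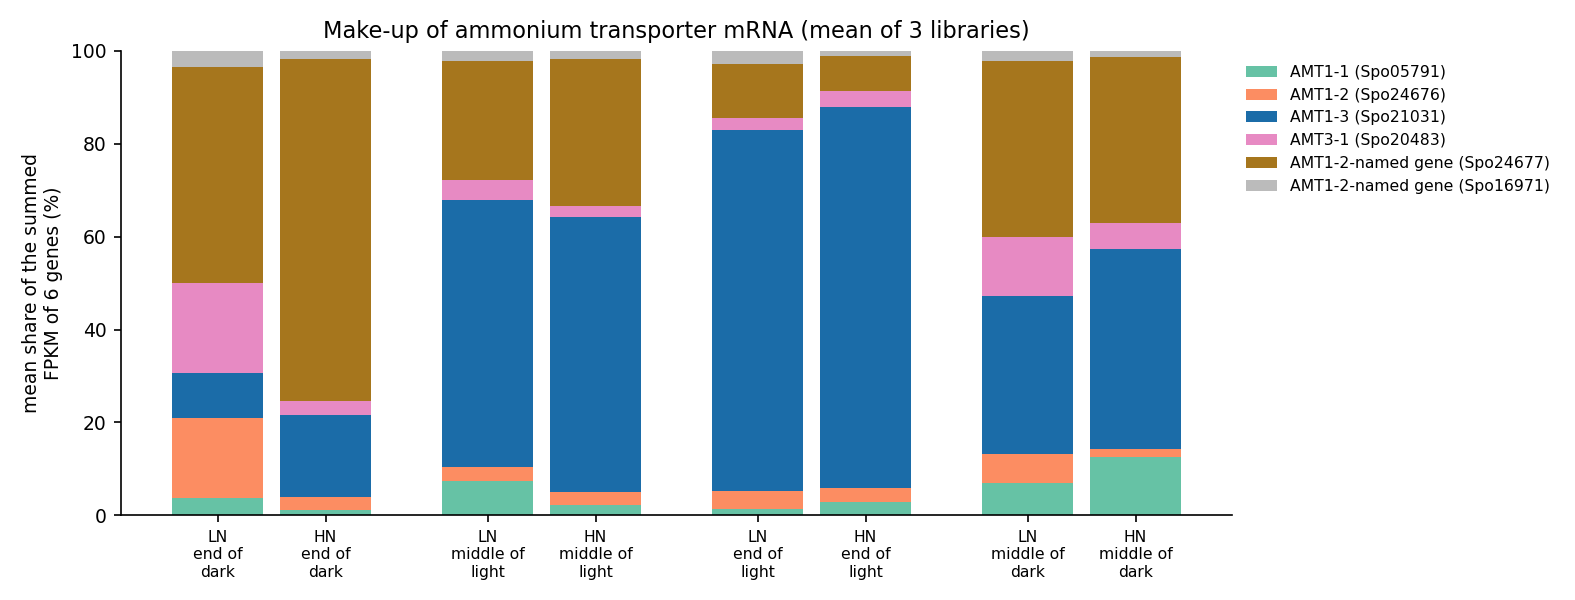
Mean share (%) of the summed FPKM of 6 genes with the ammonium transporter domain in each group of 3 libraries, LN left of HN at each of the 4 times. Spo24677 has the largest share at the end of dark (46.5% in LN and 73.6% in HN) and AMT1-3 the largest at the end of light (77.7% in LN and 82.0% in HN).

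Library to library within a group, some members moved together. Over the 24 libraries, deviations from the group means on the log2 scale had a Pearson r of 0.67 between AMT1-2 and its neighbour Spo24677, 0.63 between AMT1-3 and Spo24677, and 0.61 between AMT1-2 and AMT1-3. They had an r of -0.01 between AMT1-1 and AMT3-1. These libraries share sequencing and scaling, LN replicate 3 of T4 is far out for several of these genes, and no test is attached.

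The genes whose levels were most like each member over the 24 libraries were taken from 9396 named genes with a mean of at least 5 FPKM, 5 per member, by Pearson r of log2(FPKM + 1). For AMT1-3 they were the WAT1-related gene At5g40240 (r = 0.93), the receptor-like kinase At2g23200 (0.93), the carboxylesterase CXE2 (0.92), the homeodomain factor ATHB-12 (0.91) and the glutamate receptor GLR3.6 (0.91). All 5 had a time effect at both nitrogen levels, and their adjusted p for the averaged nitrogen effect was 0.225 or above. Since the 5 were picked for their likeness to AMT1-3 in the same libraries, these results largely follow from the choice. For AMT1-2 they were the NAC factor NAC082 (0.95), the glutaredoxin GRXC6 (0.94), the demethylase JMJ25 (0.92), the rhamnosyltransferase RRT1 (0.91) and the receptor kinase HPCA1 (0.90). For AMT3-1 they were PNAE (0.87), the zinc finger gene At4g29190 (0.81), GLR3.3 (0.81), DIVARICATA (0.81) and GSTL3 (0.80). For AMT1-1 they were the peroxidase PER42 (0.85), the anion transporter ANTR6 (0.81), DHAD (0.78), CHI (0.78) and the kinesin KIN14I (0.77).

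In 7 lists of genes that supply, bind, move or use ammonium and nitrate, 11 of 51 tested genes (21.6%) were called for the averaged nitrogen effect, 6 higher and 5 lower in LN leaves, where 16.5% of all tested genes were called. Of 27 genes of ammonium assimilation, 20 passed the filter on low values, 2 were higher in LN leaves, none was lower, and the median log2 change was 0.05, against 0.00 over all tested genes. Both called genes are named after cytosolic forms of glutamine synthetase, the enzyme that binds ammonium to glutamate. The glutamine synthetase gene Spo01186, named after a nodule isozyme of moth bean, had a log2 change of 1.54 ± 0.31 (SE, limma, adjusted p = 0.00349). At T1 it averaged 52.9 ± 37.4 FPKM in LN leaves and 8.63 ± 2.70 FPKM in HN leaves (SD, n = 3 each). GLN1-1 (Spo17102) had a log2 change of 0.84 ± 0.21 (adjusted p = 0.0108). Both calls held without each of the 24 libraries. A time effect passed for 6 of the 20 genes in LN leaves (28.7% of all tested genes) and for 8 in HN leaves (38.9% of all tested genes), shares near the background, and the nitrogen by time interaction for none (0.0828% of all tested genes).

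Of the 2 genes of nitrate reduction, nitrite reductase (NIR, Spo21339), whose product is ammonium, fell in LN leaves, with a log2 change of -1.0 ± 0.18 (limma, adjusted p = 0.00216). Nitrate reductase (NIA, Spo23607) had a log2 change of -0.21 ± 0.21 (adjusted p = 0.531), so the list had 0 genes higher and 1 lower. Both had a time effect at both nitrogen levels. Of 19 genes of nitrate uptake and transport, 9 passed the filter, 3 were higher in LN leaves and 1 lower, with a median of 0.36. The 2 with the lowest adjusted p carry the name of the dual-affinity nitrate transporter NPF6.3. At T3 Spo26413 averaged 83.1 ± 10.2 FPKM in LN leaves and 20.8 ± 14.4 FPKM in HN leaves (SD, n = 3 each), a difference that did not pass at that time alone (adjusted p = 0.551). Its log2 change was 1.65 ± 0.37 averaged over the 4 times (adjusted p = 0.00727) and 0.0037 at T1. The other, Spo15476, had a log2 change of 1.10 ± 0.33 (adjusted p = 0.027). The other 2 calls were NRT3.2 (Spo07639, higher) and NPF4.6 (Spo25782, lower). With each library left out in turn, they were lost in most fits and held in only 9 (NRT3.2) and 8 (NPF4.6). The adjusted p reached 0.079 and 0.078, and without LN replicate 3 of T4 it was 0.0624 and 0.0693. By voom NRT3.2 was not called (adjusted p = 0.101) and NPF4.6 was (0.0387). The call of Spo15476 was lost without LN replicate 3 of T1 (adjusted p = 0.0542) and by voom (0.224).

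The list of AMT regulators known from Arabidopsis held 1 kinase and 3 calcineurin B-like calcium sensors, of which 3 of 4 genes passed the filter and 1 was lower in LN leaves. It was CIPK23 (Spo11482), a kinase that phosphorylates and inhibits AMT1 proteins in Arabidopsis, with a log2 change of -0.30 ± 0.09 (limma, adjusted p = 0.0307). Its call was lost without 6 of the 24 libraries in turn (adjusted p up to 0.0586). CBL1 (Spo09771), a calcium sensor that works with CIPK23, had a log2 change of -0.24 ± 0.14 (adjusted p = 0.236). Of 2 TIP2 aquaporins, vacuolar channels that pass ammonia, 1 was tested: TIP2-1 (Spo23126) was lower in LN leaves by a log2 change of -1.47 ± 0.38 (adjusted p = 0.0141). At T1 it averaged 102 ± 96.6 FPKM in LN leaves and 241 ± 32.7 FPKM in HN leaves (SD, n = 3 each), a difference that did not pass at that time alone (adjusted p = 0.172).

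Of 10 genes listed for photorespiratory ammonium release, which are of the glycine cleavage system or serine hydroxymethyltransferases, 9 passed the filter. None was higher and 1 was lower in LN leaves. It was the mitochondrial serine hydroxymethyltransferase Spo16852, with a log2 change of -0.55 ± 0.16 (limma, adjusted p = 0.0289). Its call was lost without 6 of the 24 libraries in turn (adjusted p up to 0.0567), among them LN replicate 3 of T4. SHM3 (Spo14406), a serine hydroxymethyltransferase named as chloroplastic, had a log2 change of 0.64 ± 0.22 (adjusted p = 0.0514). No tested gene of the glycine cleavage system was called. Of 8 genes of urea use, 7 passed the filter, 1 was higher and none was lower. It was urease (URE, Spo05979), which frees ammonium from urea, with a log2 change of 1.04 ± 0.21 (adjusted p = 0.00385). The accessory gene UREG (Spo21996) had a log2 change of -0.25 ± 0.12 (adjusted p = 0.139).

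**Figure D5:**
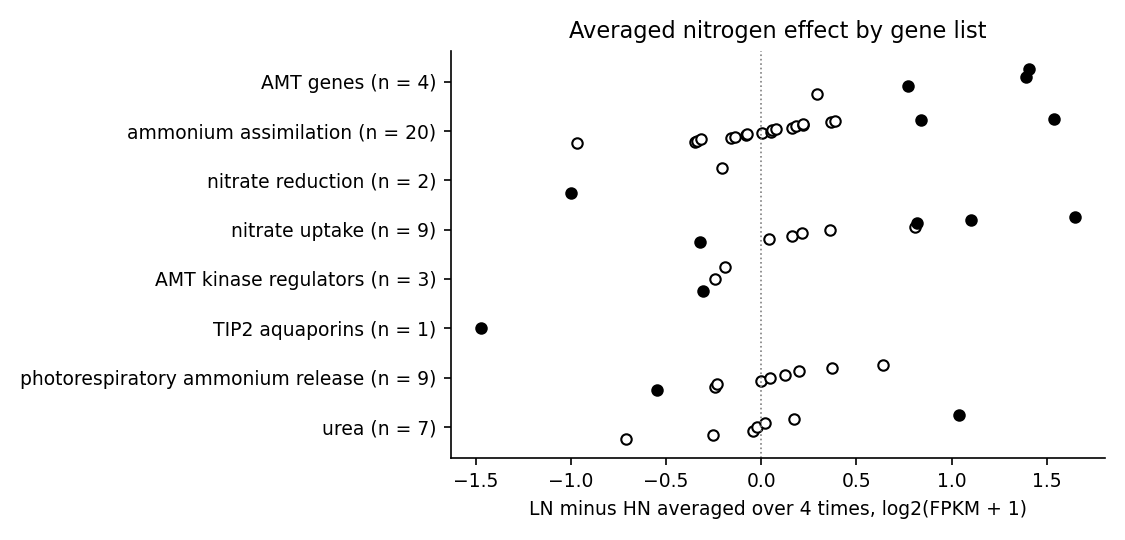
LN minus HN difference in log2(FPKM + 1), averaged over the 4 times, for the 4 AMT genes and for the tested genes of 7 lists of nitrogen biology. Each point is a gene and filled points have an adjusted p under 0.05 (limma, over all genes). The 3 filled AMT points lie at 0.77, 1.39 and 1.41, while 2 of 20 ammonium assimilation genes are filled, at 0.84 and 1.54.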

How the data were processed

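Poly-A RNA of 24 leaf libraries (8 groups of 3) was sequenced from directional dUTP libraries, per the labels' protocols. Per the submitters' processing notes, the tools were HISAT2, RSEM and DESeq2 1.20.0, whose roles are not stated. The series title names Sp75 as reference, and coordinates are those of the deposited table.

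The authors deposited FPKM values for 25494 genes with gene lengths in the same table. FPKM times length gave whole multiples of 1 step per library for 100.0% of values (tolerance 0.01), from which 18369094 to 25252705 fragments per library were recovered. These steps match median-of-ratios scaling within 0.008%. No 2 libraries of a group agreed within sampling noise (lowest chi-square per degree of freedom 28.9).

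The 18110 genes with at least 1 FPKM in at least 3 libraries, all 4 members among them, were fitted as log2(FPKM + 1) with limma 3.58.1 in R 4.3.3 (8 group means, 16 residual degrees of freedom, moderated with a trend), and p-values were adjusted by Benjamini-Hochberg over all tested genes. A pseudocount of 1 understates changes of low genes. Each contrast is LN minus HN, or the later time minus the earlier. Called means an adjusted p under 0.05. Other settings tried were a pseudocount of 0.1, genes of all levels, a mean of at least 5 FPKM, a common sum, voom on recovered fragments, only the compared groups, robust moderation, replicate blocks, and each library left out. The fit was tested on simulated data.

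The members and lists were chosen with earlier results of these data known. Named were the members, other genes called ammonium transporter, called assimilation genes of at least 5 FPKM, up to 2 genes per other list by adjusted p, and 5 genes per member by correlation. NRT3.2 and NPF4.6 were named after their values were seen. Lists and markers were matched by protein name. Of the gene identifiers, 0 matched the RefSeq gene table used, so no sequences were analysed here.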

Additional observations from a re-analysis of the deposited data

How the results depend on the processing

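The 3 averaged nitrogen calls held in every alternative that could be fitted, except that AMT1-1 is below the filter of a mean of 5 FPKM, where 2 members were called. The count of member calls at single times, 2 with all libraries, was 1 with a pseudocount of 0.1, with no filter, with voom and with only the compared groups, 4 without the 3 least typical libraries, and 0 to 3 when 1 library was left out. Members with a time effect in HN leaves, 1, became 2 with a pseudocount of 0.1, with only the compared groups and without the 3 libraries, and 1 to 2 without 1 library. In LN leaves, 2 became 1 with the 5 FPKM filter (AMT1-1 not tested) and with only the compared groups, and 1 to 3 without 1 library. Calls between pairs of times in HN leaves, 4, became 8 with only the compared groups and without the 3 libraries, and 3 to 6 without 1 library. In LN leaves, 6 became 3 with only the compared groups, 11 without the 3 libraries, and 4 to 10 without 1 library. The interaction and the nitrogen differences of changes called 0 members throughout. The alternative without the 3 libraries was chosen after seeing the data, and it leaves 2 libraries in 3 LN groups.

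Signs turned for 3 nitrogen differences, none of them called with all libraries. The T3 log2 change of AMT1-1 (LN minus HN), 0.23 with all libraries, was -0.15 without LN replicate 3 of that time and without the 3 libraries, and -0.15 to 0.46 without 1 library. Its T4 change, 0.04 with all libraries, was -0.024 with the common sum, -0.066 without the 3 libraries and -0.30 to 0.25 without 1 library. The T4 change of AMT1-3, 0.65 with all libraries (a 2.22-fold ratio of means), was -0.082 without LN replicate 3 of that time and without the 3 libraries, and -0.082 to 1.35 without 1 library. The causes were not tested.

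Same-numbered libraries did not deviate together (median correlation -0.01 within and -0.09 across nitrogen levels), so the numbers were not taken as pairs. With the replicate block, the counts were 3 members for the averaged nitrogen effect, 2 at single times, 2 and 1 for time in LN and HN leaves, and 6 and 4 for pairs of times. With the block within nitrogen level, the LN pairs numbered 5, since AMT1-1 lost its fall from T2 to T4 (adjusted p = 0.051). No averaged nitrogen effect can be had from that block.

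The counts over all genes behind the background shares also moved. Genes called for nitrogen numbered 1805 at T1, against 316 with only the compared groups, 3351 without the 3 libraries and 389 without LN replicate 3 of that time. The counts were 1 at T2 (0 to 25 over the alternatives), 1 at T3 (0 to 171), 67 at T4 (0 to 84, and 0 to 233 without 1 library) and 15 for the interaction (2 to 306, and 0 to 101 without 1 library). The nitrogen difference of the T1 to T3 change had 25 genes (1 to 355). With only the compared groups, the LN time effect had 2736 genes in place of 5197, and LN pairs had 1440 in place of 3624 (T1 to T2), 1583 in place of 4706 (T1 to T3), 111 in place of 1356 (T1 to T4), 108 in place of 340 (T2 to T3), 432 in place of 1387 (T2 to T4) and 348 in place of 2373 (T3 to T4). HN pairs had 2362 in place of 1410 (T1 to T4) and 237 in place of 502 (T2 to T3). The common sum moves the median of all genes by up to 0.34 (HN leaves, T4 minus T2), and the 4 AMT1-3 falls into dark held under it.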
